A study of Mus musculus with 28 samples.

Results

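The 10 genes described here belong to the Wnt signalling pathway: the ligand Wnt5a, the receptors Fzd1 and Fzd2, the secreted inhibitors Dkk2, Dkk3, Sfrp1 and Sfrp2, the nuclear factors Tcf7l2 and Lef1, and the target gene Axin2. They were given as a list of symbols, drawn up with earlier results of these data known, and all 10 were found among the 23951 gene symbols of the expression tables. For each gene the RNA level was read in every clone, and the chromatin libraries were read within 2 kb of either end of the locus that the expression tables give.

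Wnt proteins are secreted ligands that bind Frizzled receptors. In the canonical branch, binding stops the destruction of beta-catenin, which then enters the nucleus and acts on target genes together with the TCF and LEF proteins; without it, these proteins keep the targets low with Groucho/TLE co-repressors. Wnt5a is best known for signals that do not pass through beta-catenin, and in fibroblasts and other mesenchymal cells for cell movement and tissue outgrowth. SFRP proteins bind Wnt ligands outside the cell, and Dickkopf proteins such as DKK2 bind the LRP co-receptors.

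All samples came from the mouse line NIH/3T3 Tet-On 3G, fibroblasts of embryonic origin that grow without limit. RNA was sequenced from 2 control clones, transduced with GFP-Luciferase and OFP-Luciferase, and from 3 clones labelled as H3.3 knockdown, transduced with OFP-H3.3A and GFP-H3.3B. H3.3 is a variant of histone H3 that can enter chromatin at any time in the cell cycle. The labels give the same culture text to all 5 clones, FLAG/HA-H3.3 fibroblasts with doxycycline, but their tags for transduction name only the luciferase or H3.3A and H3.3B constructs. If the culture text holds, the controls carry tagged H3.3 and received doxycycline as well. Unmodified cells were used for chromatin immunoprecipitation (ChIP) of 6 subunits of NuRD, a complex that joins nucleosome remodelling to histone deacetylation (RBBP4, MTA1, CHD4, MBD2/3, HDAC1 and HDAC2), and of H3K4me3, H3K9ac and H3K27ac. Each of these has 1 library, so their values have no replicate check. RBBP4 is also a subunit of other chromatin complexes, among them Polycomb repressive complex 2. An HA antibody was used for tagged H3.3, in 2 replicates of HA/FLAG-H3.3 cells given doxycycline and aphidicolin, which arrests the cell cycle. MTA1 and RBBP4 were also precipitated from luciferase control cells and from H3.3 knockdown cells, with 1 library per protein and condition. A sequential ChIP for FLAG and then RBBP4, in HA/FLAG-H3.3 cells given doxycycline, gave 6 peaks in all. Every clone derives from 1 cell line, and each is a single clone. The p-values therefore set the difference between groups against the spread between single clones of that line.

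The estimated depth was 18.2 to 26.5 M fragments per RNA library. H3f3a and H3f3b, which encode H3.3, stood at 128 and 143 FPKM (fragments per kilobase of transcript, scaled to the size of the library) and at 249 and 237 FPKM in control clones 1 and 2. In knockdown clones 1, 2 and 3, H3f3a stood at 71.8, 35.6 and 5.05 FPKM and H3f3b at 144, 104 and 51.7 FPKM, so that clone 1 kept the most H3.3 mRNA and clone 3 the least. The first principal component, taken over all genes with a mean of at least 1 FPKM, held 39.1% of the variance. On it, knockdown clone 1 lay at 72.6 and the other libraries between -40.1 and 0.59. All 10 fibroblast markers were expressed, with a summed FPKM of 6536 to 7257 in the controls and 8161 to 9702 in the knockdown clones. The summed FPKM was 0.70 to 6.51 for 6 epithelial markers (Epcam was listed at 0 in every clone), 4.73 to 14.7 for 5 endothelial markers and 0.45 to 1.54 for 5 neural markers. It was 26.5 to 55.8 for 5 muscle markers, mostly from Acta1, with Myod1 listed at 0 in every clone, and 9.61 to 21.3 for 5 haematopoietic markers.

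The sequences upstream of 4 members are shown because these genes differ in CpG content and, as described further on, in what was bound at their starts. Each is the 250 bases before the transcription start in RefSeq, on build GRCm38.p6, 5′ to 3′ on the gene's strand, with CpG dinucleotides in capitals. Dkk2 is at chr3:132085042-132085291 on the plus strand, Sfrp2 at chr3:83766071-83766320 on the plus strand, Axin2 at chr11:108920099-108920348 on the plus strand and Tcf7l2 at chr19:55741560-55741809 on the plus strand.
Dkk2: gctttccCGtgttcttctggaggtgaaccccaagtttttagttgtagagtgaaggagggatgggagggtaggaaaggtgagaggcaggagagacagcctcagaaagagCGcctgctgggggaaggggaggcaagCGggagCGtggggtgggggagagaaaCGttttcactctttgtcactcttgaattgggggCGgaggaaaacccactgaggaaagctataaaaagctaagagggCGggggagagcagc
Sfrp2: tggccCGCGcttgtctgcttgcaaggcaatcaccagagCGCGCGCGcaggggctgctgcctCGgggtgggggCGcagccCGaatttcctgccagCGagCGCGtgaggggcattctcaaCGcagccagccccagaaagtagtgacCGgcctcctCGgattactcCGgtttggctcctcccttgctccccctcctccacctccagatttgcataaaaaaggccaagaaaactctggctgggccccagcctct
Axin2: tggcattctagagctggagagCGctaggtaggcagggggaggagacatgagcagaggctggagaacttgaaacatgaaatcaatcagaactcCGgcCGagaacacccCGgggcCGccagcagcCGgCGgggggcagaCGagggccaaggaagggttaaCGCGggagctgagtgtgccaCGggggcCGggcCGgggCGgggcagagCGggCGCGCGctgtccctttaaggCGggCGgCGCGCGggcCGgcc
Tcf7l2: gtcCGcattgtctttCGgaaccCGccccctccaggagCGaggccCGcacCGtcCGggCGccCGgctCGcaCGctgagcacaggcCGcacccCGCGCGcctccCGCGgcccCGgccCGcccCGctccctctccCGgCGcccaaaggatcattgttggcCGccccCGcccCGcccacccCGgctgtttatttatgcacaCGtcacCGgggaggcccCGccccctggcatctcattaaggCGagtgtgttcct
Dkk2 had 7 CpG dinucleotides in this window, Sfrp2 16, Axin2 24 and Tcf7l2 30, against a median of 6 over the 32851 promoter entries of the table. Entries were matched for 6 members, the other 2 being Lef1 with 11 CpG and Fzd1 with 12, so that all 6 lay above the median. The T-cell factor motif was searched on both strands as CTTTG followed by AA, AT, TA or TT. None of the 6 windows held a match, and 14.8% of all entries held at least 1.

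Of the 10 genes, Fzd2 was the most strongly expressed, followed by Fzd1, Wnt5a and Tcf7l2, and these 4 stood apart from the other 6. Mean FPKM over the 5 clones was 62.2 for Fzd2, 22.5 for Fzd1, 19.9 for Wnt5a, 15.7 for Tcf7l2 and 2.57 for Dkk2. Lef1 had a mean of 1.23, Sfrp2 1.18, Axin2 0.60, Dkk3 0.30 and Sfrp1 0.08 FPKM. Read down this order, Fzd2 was above Fzd1 in every clone with ranges that did not overlap (lowest Fzd2 value 45.6, highest Fzd1 value 32.1), and the same held for Tcf7l2 over Dkk2 (7.75 against 4.54). The ranges of every other pair of neighbours overlapped. Axin2, which is often used as a readout of beta-catenin activity, was at 0.47 to 0.72 FPKM in the 5 clones. The 2 members with the lowest means rest on few reads: an estimated 9.6 to 55.1 fragments per clone for Dkk3 and 2.5 to 33.5 for Sfrp1.

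**Figure D1:**
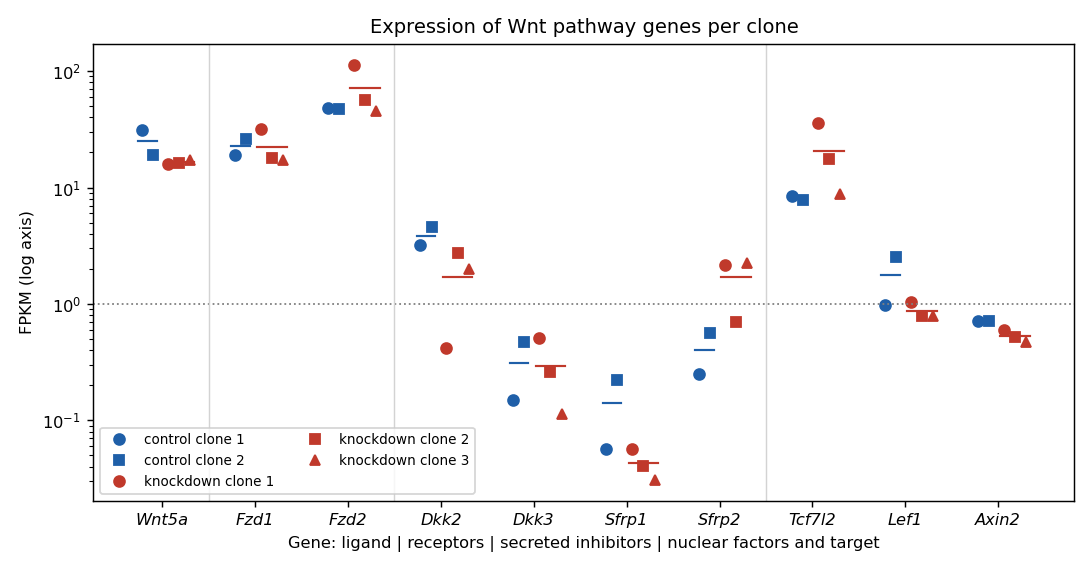
FPKM (log axis) of the 10 Wnt genes, ordered by role, in 2 control clones (blue) and 3 H3.3 knockdown clones (red); short lines are group means and the dotted line is 1 FPKM, the mean above which a gene was tested. Knockdown clone 1 is the highest point for Fzd2 (114 FPKM) and Tcf7l2 (36.0 FPKM) and the lowest for Dkk2 (0.42 FPKM).

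The knockdown comparison asks what loss of H3.3 does to expression. None of the 7 members that could be tested changed by limma with Benjamini-Hochberg adjustment at 0.05 over all 11728 genes that had a mean of at least 1 FPKM. The background was equally sparse, since 0.0341% of those genes passed. At an unadjusted p under 0.05 none of the 7 passed, against 9.81% of all genes. With 2 clones against 3, an exact two-sided permutation test of 1 gene cannot go below p = 0.2 (the one-sided p doubled). The median log2 difference, knockdown minus control, was -0.05 over the 7 members and -0.10 over all genes tested. Each log2 difference below is on the log2(FPKM + 1) scale, which understates changes of low genes. A clone with fewer expressing cells and one with less RNA per cell cannot be told apart in these bulk libraries.

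Wnt5a, the ligand, stood at 31.1 and 19.0 FPKM in control clones 1 and 2 and at 15.8, 16.4 and 17.3 FPKM in knockdown clones 1, 2 and 3. All knockdown clones lay below both controls, closely together, while the controls themselves were far apart. The log2 difference was -0.54 (SE 0.25, adjusted p = 0.520 by limma), and -0.20 without control clone 1 against -0.88 without control clone 2.

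Fzd1 and Fzd2 encode Frizzled receptors. Fzd2 was at 47.9 and 46.8 FPKM in the controls and at 114, 57.0 and 45.6 FPKM in knockdown clones 1, 2 and 3. The groups overlapped, with knockdown clone 1 high and clone 3 just below the controls. The log2 difference was 0.48 (SE 0.41, adjusted p = 0.658 by limma), and 0.11 without knockdown clone 1. Fzd1 was at 19.0 and 26.3 FPKM in the controls and at 32.1, 17.9 and 17.3 FPKM in the knockdown clones. Its groups overlapped too, with the control values inside the range of the knockdown clones. Its log2 difference of -0.05 (SE 0.33, adjusted p = 0.951 by limma) turned to 0.17 without control clone 2.

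Among the secreted inhibitors, Dkk2 was lower and Sfrp2 higher in every knockdown clone than in either control, without passing the test. Dkk2 was at 3.20 and 4.54 FPKM in the controls and at 0.42, 2.72 and 1.99 FPKM in the knockdown clones, the lowest value from clone 1. Its log2 difference was -0.94 (SE 0.46, adjusted p = 0.522 by limma), and -0.53 without knockdown clone 1. Sfrp2 was at 0.25 and 0.56 FPKM in the controls and at 2.16, 0.70 and 2.24 FPKM in the knockdown clones. Clone 2 lay close to the higher control, and clones 1 and 3 stood well above both. The log2 difference was 0.89 (SE 0.38, adjusted p = 0.512 by limma). Sfrp2 reached the expression minimum only through the knockdown clones, and its fragments were estimated at 17.0 and 37.6 in the controls and at 108, 50.3 and 114 in the knockdown clones. Dkk3 and Sfrp1 were below the minimum and were not tested. Dkk3 was at 0.15 and 0.47 FPKM in the controls and at 0.51, 0.26 and 0.11 FPKM in the knockdown clones, with groups that overlapped. Sfrp1 was at 0.06 and 0.22 FPKM in the controls and at 0.06, 0.04 and 0.03 FPKM in the knockdown clones, and its groups overlapped as well.

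Tcf7l2, which encodes a member of the TCF/LEF family, differed widely among the knockdown clones. It was at 8.52 and 7.75 FPKM in the controls and at 36.0, 17.6 and 8.78 FPKM in knockdown clones 1, 2 and 3. All knockdown clones were above both controls, clone 3 only just. The log2 difference was 1.05 (SE 0.56, 95% interval -0.35 to 2.45, adjusted p = 0.547 by limma). It was 0.56 without knockdown clone 1 and 1.52 without knockdown clone 3. Tcf7l2 was highest in clone 1, which kept the most H3f3a mRNA, and nearest to the controls in clone 3, which kept the least. The same order of clones held for Fzd2 and on the first principal component given above (72.6, 0.59 and -27.6), so it was not particular to Tcf7l2. The part of clone 1 in the Tcf7l2 values was not tested. By Euclidean distance of log2(FPKM + 1), centred per gene, over the 5 libraries, the genes nearest to Tcf7l2 among 11371 compared were Mid1 (distance 0.26), Mab21l1 (0.42) and AI462493 (0.43). Mid1 was at 19.5 and 15.2 FPKM in the controls and at 73.2, 35.5 and 15.6 FPKM in the knockdown clones.

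Lef1, a TCF/LEF family member that is itself a target of the pathway, was at 0.97 and 2.54 FPKM in the controls and at 1.05, 0.78 and 0.79 FPKM in the knockdown clones. Control clone 2 was the high value, and control clone 1 lay within the range of the knockdown clones. Lef1 reached the expression minimum through the controls (mean 1.75 FPKM, against 0.87 FPKM in the knockdown clones), mainly clone 2. Its log2 difference of -0.50 (SE 0.33, adjusted p = 0.588 by limma) was -0.08 without control clone 2, and it is given as a description. Axin2, a target whose product acts in the destruction complex, was at 0.72 and 0.71 FPKM in the controls and at 0.60, 0.52 and 0.47 FPKM in the knockdown clones. All knockdown clones lay below both controls, by a small margin. Axin2 was below the expression minimum, and a limma fit of all symbols without that minimum gave it a log2 difference of -0.16 (SE 0.07, adjusted p = 0.608).

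Counted together, 4 of the 7 tested members had all knockdown clones on 1 side of both controls, Sfrp2 and Tcf7l2 above and Dkk2 and Wnt5a below. Over all genes tested, 32.6% did so, 11.4% above and 21.2% below. The count is a description, since Sfrp2 was among the tested members only through the clones in which it was high. With the 3 members below the minimum the count was 5 of 10, Axin2 being the fifth, against 26.6% of the 18984 symbols with an FPKM above 0.

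The rest of the pathway did not pass the test either. A list of 110 other Wnt genes in 8 roles was found in the tables, of which 61 were tested. None was called by limma at an adjusted p of 0.05, beside 0.0341% of all genes tested. At an unadjusted p under 0.05, 2 of the 61 passed, beside 9.81% of all genes. Of the 61, 29 had a positive and 32 a negative log2 difference, with a median of -0.04, beside -0.10 over all genes tested. NIH/3T3 cells expressed little of the other ligands: 13 of 18 had a mean under 0.1 FPKM, and Wnt9a was highest at a mean of 3.66 FPKM, below Wnt5a. Wls, which carries Wnt proteins to the cell surface, had a mean of 52.7 FPKM.

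Among the cytoplasmic genes of the pathway, which include beta-catenin, the complex that degrades it and the Dishevelled proteins that oppose that complex, 19 of 19 were tested, and 8 had a positive and 11 a negative log2 difference. All knockdown clones lay below both controls at 4 of the 19 and above both at 2, beside 21.2% and 11.4% of all genes. Ctnnb1, which encodes beta-catenin, was at 240 and 269 FPKM in the controls and at 178, 208 and 220 FPKM in the knockdown clones, with a log2 difference of -0.34 (adjusted p = 0.560 by limma). The scaffold gene Axin1 was at 32.8 and 26.4 FPKM in the controls and at 19.2, 21.3 and 22.9 FPKM in the knockdown clones. Both had all knockdown clones below both controls, and neither passed the test. Apc2, a relative of the scaffold gene Apc, had all knockdown clones above both controls, at 0.67 and 1.18 FPKM in the controls and at 3.39, 2.01 and 2.59 FPKM in the knockdown clones. Its log2 difference was 0.92 (adjusted p = 0.462 by limma), the second smallest p of the list. Apc2 reached the expression minimum mainly through the knockdown clones, in which it was high. Its rank and its place in the count above are therefore given as a description.

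The smallest p of the list belonged to Tle1, a Groucho co-repressor that binds TCF and LEF proteins. It was at 33.3 and 32.5 FPKM in the controls and at 14.4, 18.1 and 18.5 FPKM in the knockdown clones. The groups were well apart, with a log2 difference of -0.92 (SE 0.19) and an adjusted p of 0.417 by limma. The 10 nuclear genes tested had a median log2 difference of 0.23, with 8 positive and 2 negative. All knockdown clones lay above both controls at 0 of the 10 and below both at 1, Tle1, beside 11.4% and 21.2% of all genes. Tcf7l1, a relative of Tcf7l2, was at 29.4 and 59.0 FPKM in the controls and at 155, 58.5 and 18.2 FPKM in the knockdown clones, so that clone 1 was high there as well and clone 3 was below both controls. Among the inhibitors, Apcdd1 was at 16.7 and 20.2 FPKM in the controls and at 8.23, 15.01 and 5.45 FPKM in the knockdown clones, a log2 difference of -0.98 (adjusted p = 0.512 by limma).

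**Figure D2:**
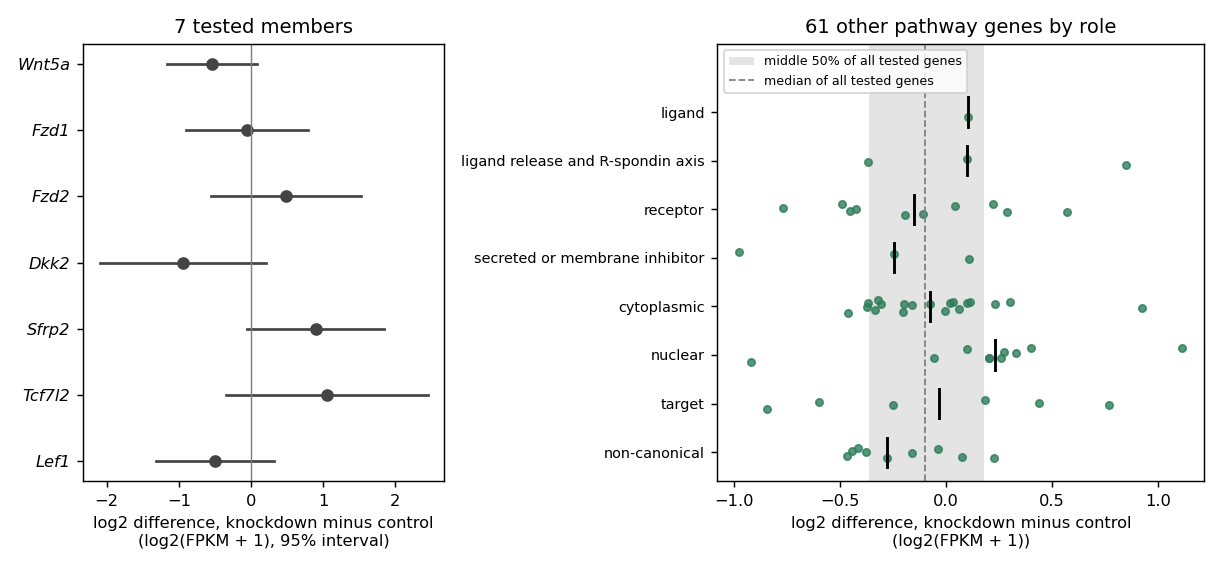
Left, log2 difference (knockdown minus control, log2(FPKM + 1) scale) of the 7 tested Wnt genes with 95% intervals from limma, all of which include 0. Right, the 61 other tested pathway genes by role (points, spread vertically only to separate them; black bars are medians) against the middle 50% of all genes tested (grey) and their median of -0.10 (dashed).

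In chromatin, read within 2 kb of a locus end, the members fell into 3 kinds. Wnt5a, Fzd1, Fzd2, Dkk2 and Tcf7l2, the 5 with the highest mean FPKM, had both an H3K4me3 peak, a mark of active and poised promoters, and an RBBP4 peak of unmodified cells within 2 kb of a locus end, which 43.0% of all symbols had. Lef1, Axin2 and Sfrp1 had an H3K4me3 peak but no region with a peak of H3.3 or of any subunit, a combination found at 4.84% of all symbols. Dkk3 and Sfrp2 had no H3K4me3, H3K9ac or H3K27ac peak there, like 43.9% of all symbols. For Dkk3 this depends on the window, since 2 H3K4me3 and 4 H3K27ac peaks lay further inside its locus. The place of Sfrp1 depends on the window too, since its peak began 1979 bp past the higher-coordinate end, and its strand is not known here. With a window of 5 kb, Axin2 had an H3.3 peak in replicate 2.

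By library, RBBP4 peaks of unmodified cells lay at 6 of the 10 members, the 5 above and the 3′ end of Dkk3 (45.4% of all symbols). H3.3 peaks lay at 7 members in each replicate, against 45.9% and 51.7% of all symbols. HDAC2 peaks lay at 5 members (28.6% of all symbols), MBD2/3 peaks at 3 (7.57%), and HDAC1 peaks at 2, Fzd1 and Fzd2 (16.9%). CHD4 and MTA1, the remodelling ATPase and a scaffold subunit of NuRD, had no peak at any member in unmodified cells, and 6.15% and 7.31% of all symbols had one. Of the marks, H3K4me3 lay at 8 members (54.4%), H3K9ac at 5 (46.6%) and H3K27ac at 3, Fzd1, Fzd2 and Tcf7l2 (36.3%). No sequential ChIP peak lay at a member (0.0334% of all symbols).

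Since most of these signals sit at active genes, the 7 members with a mean of at least 1 FPKM were also set beside all symbols above that level. H3.3 peaks lay at 6 of the 7 in each replicate (75.7% and 82.1% of expressed symbols), RBBP4 at 5 (79%) and HDAC2 at 5 (51.6%). MBD2/3 peaks lay at 3 (13.8%), HDAC1 at 2 (31.4%), and CHD4 and MTA1 at none (11.2% and 13.1%). The marks lay at 6 for H3K4me3 (91.7%), 5 for H3K9ac (86.2%) and 3 for H3K27ac (64.9%). Read this way, the counts for H3.3, RBBP4, HDAC1 and H3K4me3 lay near their backgrounds. With 7 genes no count was tested, including the absence of CHD4 and MTA1 peaks. The MBD2/3 peaks covered only 5.43%, 9.89% and 6.74% of their regions at Fzd1, Dkk2 and Tcf7l2. None of these 3 members was kept under the stricter rule for peaks given in the last section.

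The level at a gene was taken as the highest value among its regions in those windows, as log2(RPKM + 1), and set among the 13962 symbols with a region. Wnt5a and Dkk2 had high RBBP4 levels, with counting intervals that overlapped. For Wnt5a the level was 2.71 from 32 reads (95% counting interval 2.26 to 3.14), at the 92.6th percentile, and for Dkk2 it was 2.69 from 123 reads (2.47 to 2.91), at the 91.7th. Fzd2 followed at 2.36 (203 reads), Tcf7l2 at 2.21 (132 reads) and Fzd1 at 2.13 (105 reads), near the median of 2.18 over all such symbols. Dkk3 stood at 1.504 (26 reads) and Sfrp2 at 0.71 (22 reads), the 2.20th percentile. Intervals cover counting error only. For HDAC2, Wnt5a stood at 2.52 from 7 reads, the 90.5th percentile. Its counting interval of 1.54 to 3.43 included the HDAC2 median of 1.90 over all such symbols. Fzd2 lay at the 86.1th percentile and Dkk2 at the 80.0th, the reverse of their order for RBBP4.

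H3.3 did not rank the genes as RBBP4 did. Fzd2 was highest of the 7 members in both replicates, at 2.89 and 3.16, the 83.4th and 95.04th percentiles, and its replicate 2 value came from the region past its 3′ end. Fzd1 was at 2.70 and 2.57, Dkk2 at 2.45 and 2.42, Tcf7l2 at 2.31 and 2.41, and Dkk3 at 2.17 and 2.40. Wnt5a, with one of the high RBBP4 levels, was at 1.96 and 2.08, the 37.2th and 35.5th percentiles. These values came from different regions at its 3′ end, whereas its RBBP4 and HDAC2 levels came from different regions at its 5′ end. In the 2788 bp region around the Wnt5a start, H3.3 was at 1.90 and 1.93 and RBBP4 at 2.57. Sfrp2 was at 1.90 and 1.93.

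**Figure D3:**
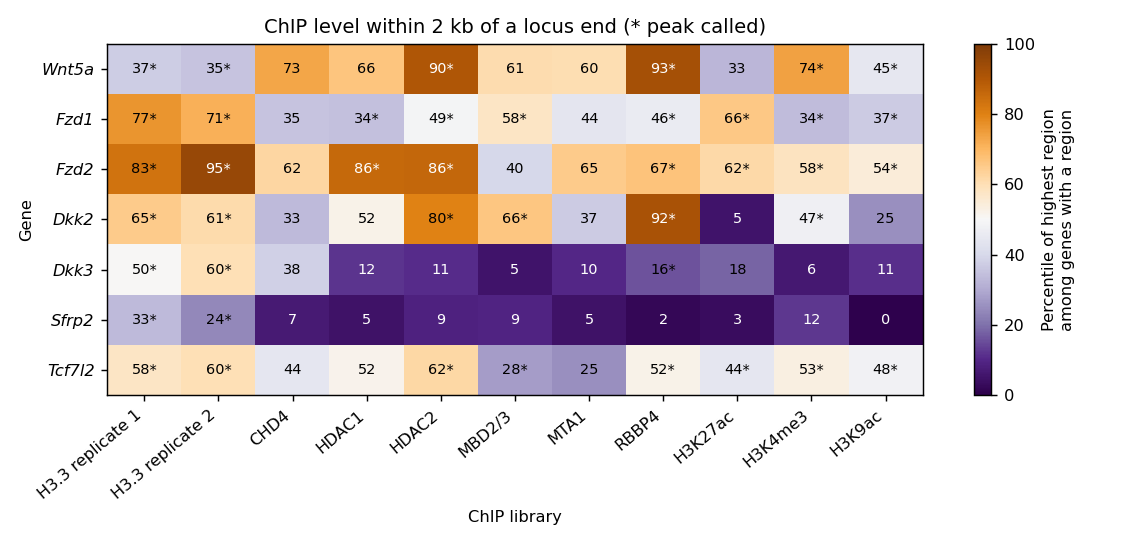
Percentile, among 13962 symbols with a region, of the highest ChIP level (log2(RPKM + 1)) within 2 kb of a locus end, for the 7 Wnt genes that have a region (rows) in 11 libraries (columns); an asterisk marks a called peak. RBBP4 is above the 90th percentile at Wnt5a and Dkk2, H3K27ac at Dkk2 is at the 5.29th, and Sfrp2 is below the 34th in every library.

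Dkk2 differed from the other 4 genes with H3K4me3 and RBBP4 in its acetylation, which marks active promoters. Its H3K4me3 peak was 4472 bp wide and reached from 1538 bp before to 2934 bp after the start, but no H3K9ac or H3K27ac peak lay within 2 kb. Of the 10305 symbols with both an H3K4me3 and an RBBP4 peak, 459 (4.45%) lacked both acetylation peaks, with a median of 0.74 FPKM against 12.3 FPKM for the 10305. The H3K27ac level at Dkk2 was 0.71 from 33 reads (95% counting interval 0.53 to 0.92), at the 5.29th percentile. Its H3K9ac level was 1.30 from 9 reads, at the 25.3th percentile, while its H3K4me3 level of 3.91 lay at the 47.5th. Wnt5a had an H3K9ac peak and no H3K27ac peak in the windows, and Fzd1, Fzd2 and Tcf7l2 had all 3 marks.

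The 5 genes also differed in where the peaks lay. On build mm9, Fzd2 is a short locus on chromosome 11, 102465745 to 102469372, and its H3K4me3 peak of 7002 bp covered all of it. RBBP4 peaks covered 64.8% of the 5439 bp region at its start. At Dkk2, on chromosome 3 from 131748256 to 131843268, 3 regions held RBBP4 peaks, and 98.3% of the largest, which the annotation table counts as intron, was covered. At Fzd1, on chromosome 5 from 4753839 to 4758216 on the minus strand, a single region of 3463 bp, with an annotated coding exon, was covered by H3.3 peaks to 90.7% and 99.3% in replicates 1 and 2 and by RBBP4 peaks to 38.0%. At Tcf7l2, on chromosome 19 from 55816300 to 56008145, RBBP4 peaks covered 60.2% of the 4051 bp region at the start.

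Beyond the ends, Tcf7l2 held H3.3 regions throughout a long locus of 192 kb. At 2.04 regions per 10 kb it lay below Fzd2 (3.93), Wnt5a (3.33) and Dkk3 (2.34). Of 40 regions in the locus with 2 kb on both sides, 39 had an H3.3 peak in replicate 2, 20 in replicate 1 and 7 an RBBP4 peak. The shares over all regions of the series were 82.7%, 56.6% and 31.0%. Of the 40, 37 were annotated as intron. Dkk3, nearly silent at 0.30 FPKM, held 11 regions in a locus of 43.0 kb, 10 of them with an H3.3 peak in replicate 2 and 5 with an RBBP4 peak. Lef1, with a locus of 114 kb, Axin2 and Sfrp1 held no such region, though 3 H3K27ac peaks lay inside the Lef1 locus and 1 inside that of Sfrp1.

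At Lef1 the H3K4me3 peak reached from 6 to 2804 bp after the start, with an H3K9ac peak of 626 bp inside it whose score, 50.2, was close to the lowest in its list. At Axin2 the H3K4me3 peak was 1870 bp wide, around the start, with no acetylation peak. The H3K4me3 peak counted for Sfrp1 began 1979 bp past the higher-coordinate end of the locus, and none lay at the other end, so it sits at the limit of the window. It was not counted when at least 50% of a peak had to lie inside the window. Of 4 H3K4me3 peaks in the Sfrp1 locus with 2 kb on both sides, it was the only 1 within 2 kb of an end. Sfrp2 had 16 CpG dinucleotides in the sequence shown above, 4 more than Fzd1, but its region of 3814 bp around the start had an H3K4me3 level of 0.75 (63 reads), the 12.1th percentile. The Sfrp2 region was covered by H3.3 peaks to 64.8% and 89.3% in the replicates and by no subunit peak.

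In luciferase control cells, RBBP4 peaks lay at Wnt5a, Fzd2, Dkk2 and Tcf7l2, 4 of the 10 members, against 8.30% of all symbols and 15.2% of those with a mean of at least 1 FPKM. In H3.3 knockdown cells, peaks lay at the same 4 genes, against 8.51% of all symbols and 16% of the expressed ones. A peak in both lists was found at 4.63% of symbols. Fzd1, which had an RBBP4 peak in unmodified cells, had none in either of these shorter lists.

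Fzd2 and Dkk2 held some of the highest RBBP4 scores of the whole lists. The scores are the authors' peak scores and serve to rank peaks within a list, since the depth of these libraries is unknown and 1 library stands for each condition. The strongest Fzd2 peak had a score of 1733 and ranked 17 of 3561 in the control list, and 767 and 24 of 2919 in the knockdown list. The strongest Dkk2 peak had 1687 and ranked 18 in the control list, and 694 and 28 in the knockdown list. Wnt5a ranked 152 in the control list, with a score of 493, and 387 in the knockdown list, with 158. Tcf7l2 lay near the bottom of both, at rank 2414 with a score of 57.3 and rank 2805 with 51.3. Because the lists differ in length and the depth is unknown, these ranks can show neither a change between conditions nor its absence.

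The strongest RBBP4 peaks of these genes overlapped between the lists, while some weaker peaks did not. At Dkk2 the control list held 1 piece from 105 to 2211 bp after the start, and the knockdown list 3 pieces from 27 to 2211 bp. A weaker Dkk2 peak lay at -475 to -248 bp from the start in the control list. In the knockdown list it lay at -1237 to -1075 bp, without overlap. At Fzd2 the strongest peak reached from 272 to 2104 bp after the start in the control list and from 294 to 1631 bp in the knockdown list. At Wnt5a a control peak of 1149 bp stood where the knockdown list had 4 peaks of 169 to 319 bp. Weaker control peaks at Fzd2 (-125 to 172 bp from the start) and Wnt5a (1948 to 2106 bp) overlapped no knockdown peak.

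MTA1 peaks lay at 3 members in the control list, Fzd2, Dkk2 and Wnt5a (2.03% of all symbols and 3.65% of the expressed ones), and at 2 in the knockdown list, Fzd2 and Dkk2 (2.18% and 3.89%). A peak in both lists was found at 0.547% of symbols. Fzd2 ranked 18 of 1703 with a score of 410 in the control list and 37 of 904 with 140 in the knockdown list. Dkk2 ranked 128 with a score of 121, and 264 with 71.7. The Wnt5a peak of the control list was 174 bp wide with a score of 53.1 and ranked 1209. All these MTA1 peaks lay after the start and overlapped the RBBP4 peaks of the same condition. In unmodified cells MTA1 had no peak at these genes, from other libraries with the same antibody.

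**Figure D4:**
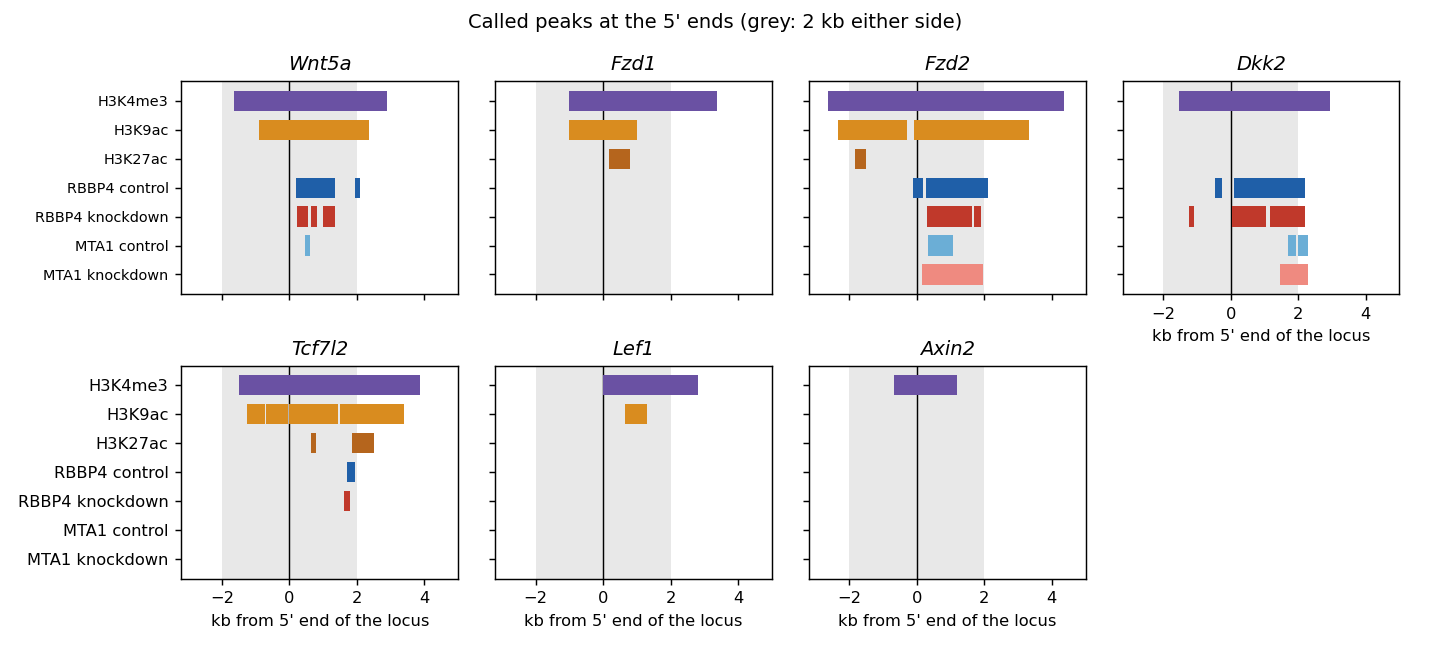
Called peaks overlapping the 2 kb windows at 7 Wnt genes, drawn by distance in kb from the 5′ end of the locus (positive is into the gene), for H3K4me3, H3K9ac and H3K27ac in unmodified cells and for RBBP4 and MTA1 in control and knockdown cells, 1 library each. RBBP4 peaks follow the start at Wnt5a, Fzd2, Dkk2 and Tcf7l2 in both conditions, and Dkk2 has no acetylation peak.

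Of the 4 genes with RBBP4 peaks in both conditions, Dkk2 and Wnt5a were lower in all knockdown clones, Tcf7l2 was higher in all, and Fzd2 overlapped, none past the test. Of the 3 with an MTA1 peak in the control list, Dkk2 and Wnt5a were lower in all knockdown clones and Fzd2 overlapped. Over all genes tested, 21.2% were below both controls in all knockdown clones and 11.4% above. A link between these peaks and RNA was not tested. Among the 110 other pathway genes, 68 (61.8%) had an RBBP4 peak in unmodified cells. The share was 45.4% over all symbols and 79% over those with a mean of at least 1 FPKM, which 61 of the 110 reached.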

How the data were processed

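Polyadenylated RNA and ChIP libraries were sequenced. Per the submitters' processing notes, the tools were TopHat, Bowtie, Cuffdiff, Cufflinks, MACS2 and bedtools on build mm9, and the notes as used here name neither roles nor versions. The members and lists were chosen with earlier results of these data known. All 10 members, the 2 most expressed genes of each pathway role, the 5 of smallest p and the 3 nearest to the member of largest difference could be named.

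Expression was deposited as FPKM per gene, in Cufflinks format per the file headers, and entries of a symbol were summed. The tables hold no counts, so depth was estimated from the upper confidence bound (2 SD of a Poisson count). No source used here states strand-specific counting, so reads of overlapping or antisense genes cannot be told apart. Clones were compared with limma 3.58.1 in R 4.3.3 (trend, two-sided, Benjamini-Hochberg) on log2(FPKM + 1), after tests on simulated data. The design was unpaired, since the 2 control and 3 knockdown clones share only numbers.

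Region levels were deposited as log2 values of RPKM + 1: read so, 100% of values under 100 reads were whole reads within 0.05, and 6.62 to 24.1 M reads were recovered per library. The fraction of a region covered by each library's peaks was deposited beside them. These regions are the union of H3.3 and subunit peaks. Peak lists were deposited with a score per peak, and the depth of the 4 libraries from transduced cells is unknown. The sequential ChIP peaks came from MACS 2.1.1.20160309 with a q-value limit of 0.05, per the file headers; the deposited pileup signal, −log10 p and fold enrichment ratio were not used beyond the peak positions. Peaks were assigned by an overlap of 1 bp or more. Input libraries were not used here.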

Additional observations from a re-analysis of the deposited data

How the results depend on the processing

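No member and no other pathway gene passed the limma test under any of the 13 alternatives for expression. The number of all genes called moved from 4 to 12 with array weights, and to between 5 and 36 when a clone was left out (36 and 28 without the first and the second control, 9 and 13 without the first and the second knockdown clone). Fitting the clone number as a replicate block gave 0 calls among 11728 genes (504 at an unadjusted p under 0.05); only 2 numbers are shared, and the correlations of same-numbered clones' deviations were -0.25 and -0.10. The signs of 6 of the 7 tested members did not change under any alternative run, with Tcf7l2 between 0.56 and 1.52, Dkk2 between -1.52 and -0.48 and Sfrp2 between 0.41 (array weights) and 1.98 (pseudocount of 0.01). Tcf7l2 had the largest difference of the 7 as reported, but Sfrp2 and Dkk2 had larger ones with a pseudocount of 0.1 or 0.01. Dkk2 also had a larger one without control clone 1. Without control clone 2 or knockdown clone 1, Sfrp2 had a larger one, and without knockdown clone 2 both Dkk2 and Sfrp2 did. Fzd1 turned positive, at 0.082 with quantile normalization and 0.096 with the block, and ranged from -0.33 to 0.17 when a clone was left out. With a minimum of 5 FPKM, 2 members, not 4, had all knockdown clones on 1 side, because fewer were tested; leaving out a clone gave 4 to 6. Quantile normalization moved the median of all genes from -0.10 to -0.01.

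With a stricter rule for peaks (a score of at least 100 or 50% of the region covered), HDAC1 kept 0 members, HDAC2 1, MBD2/3 0 and MTA1 in knockdown cells 1. A window of 5 kb or the whole locus gave MTA1 in unmodified cells 1 member, and the whole locus gave HDAC1 4 and H3K27ac 7. With a length-weighted mean of regions, 5 members in place of 3 lay above the median gene for H3K4me3 and 2 in place of 1 for H3K9ac. The cause of these differences was not tested. Region levels of the subunits rest on as few as 2 reads at a member, so small differences there are not detectable at this depth.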
